A study of Homo sapiens with 26 samples.

Results

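Chromosome 17 was described here as 773 bins of 100 kb (hg19), out of 26331 bins that could be used in the whole genome. A bin of the chromosome belonged to the set if it had a value and was above 0 in at least 1 of the 26 cells. Of the 812 bins of the chromosome, 33 had no value and 6 were 0 in every cell. Of the 33, 29 formed the gap around the centromere from 22300001 to 25200000. The other 4 began at 19000001, 34500001, 34600001 and 44500001, and the 6 bins at 0 began at 16600001, 18300001, 20300001, 34700001, 44400001 and 44600001.

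The cells were single cells of KBM7, a human leukaemia line with a nearly haploid genome, all of clone 5-8, labelled 1N and DamOnly, which is Dam not fused to another protein. Shield1, a ligand that stabilises the Dam protein, was given to every cell at 0.5 nM for 15 h, and cells positive for both Fucci cell cycle markers among the smallest 2% were sorted. Although the series title speaks of lamin B1, every cell is labelled as Dam alone, and that label was followed. All cells form 1 group from 1 clone, and no untreated or Dam-free cells were analysed here, so a ± value is an SD over these 26 cells, which are not replicate cultures, and no test was made.

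Dam is a bacterial enzyme that methylates the adenine of GATC, and DpnI cuts GATC only where it is methylated, so the amplified fragments mark DNA that the enzyme reached. Unfused Dam marks accessible chromatin more than compact chromatin at the nuclear lamina. Chromosome 17 is one of the most gene-dense human chromosomes. Giemsa staining divides its arms into light bands, which are in general richer in genes and replicate early, and dark bands, which are in general poorer in genes and replicate late. It carries BRCA1, the keratin and HOXB clusters and many genes that most cells use, and also a few long intervals with hardly any coding gene.

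The element that Dam reads can be shown at 4 promoters: those of GRB2 and CLTC, whose bins were high in these cells, CA10, whose bins were low, and KCNJ2. A low interval with no protein-coding gene runs from KCNJ2 to SOX9, and low bins also lay before KCNJ2. GRB2 encodes an adaptor of receptor tyrosine kinase signalling and CLTC the clathrin heavy chain. CA10 encodes a brain protein related to carbonic anhydrases and KCNJ2 an inward rectifier potassium channel of muscle and heart. Each line gives the 250 bases before the RefSeq start of the gene, 5′ to 3′ on the strand of the gene, with each GATC in capitals. The coordinates are those of GRCh38.p14, another build than that of the bins: GRB2 chr17:75405679-75405928 (minus strand), CLTC chr17:59619645-59619894 (plus strand), CA10 chr17:52159802-52160051 (minus strand) and KCNJ2 chr17:70169282-70169531 (plus strand).
GRB2: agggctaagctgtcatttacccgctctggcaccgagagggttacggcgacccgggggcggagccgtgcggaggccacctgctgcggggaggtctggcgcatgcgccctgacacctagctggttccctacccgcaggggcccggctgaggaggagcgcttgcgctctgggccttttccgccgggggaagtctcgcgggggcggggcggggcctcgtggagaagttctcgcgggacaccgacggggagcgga
CLTC: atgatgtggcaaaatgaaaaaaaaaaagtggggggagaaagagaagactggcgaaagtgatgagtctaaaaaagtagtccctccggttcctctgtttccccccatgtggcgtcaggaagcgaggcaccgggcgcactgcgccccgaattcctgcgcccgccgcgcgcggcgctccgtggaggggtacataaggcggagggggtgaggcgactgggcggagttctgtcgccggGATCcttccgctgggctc
CA10: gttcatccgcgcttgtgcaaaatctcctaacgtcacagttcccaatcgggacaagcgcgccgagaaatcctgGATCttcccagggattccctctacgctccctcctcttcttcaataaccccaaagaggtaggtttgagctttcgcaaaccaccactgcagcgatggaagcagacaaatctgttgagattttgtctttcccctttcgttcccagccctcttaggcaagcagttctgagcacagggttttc
KCNJ2: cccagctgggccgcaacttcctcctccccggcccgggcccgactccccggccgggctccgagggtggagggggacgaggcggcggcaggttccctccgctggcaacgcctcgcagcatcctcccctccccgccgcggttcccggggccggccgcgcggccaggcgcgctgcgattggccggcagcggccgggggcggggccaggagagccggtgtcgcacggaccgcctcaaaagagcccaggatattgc
CLTC and CA10 each held 1 GATC and GRB2 and KCNJ2 none, so the high pair was split by this motif and so was the other pair. GATC reads the same on both strands and was searched with no other motif. It was in 36.1% of the 1639 promoters of chromosome 17 and in 35.8% of the 35116 promoters of the table. Of 35 single genes used as landmarks, 23 had a promoter in the table and 8 of those held GATC. A bin of 100 kb does not resolve a promoter, so these letters describe the sequence and not a site that was measured.

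Chromosome 17 was marked above the rest of the genome in nearly every cell. Its level, the mean ratio of observed over expected signal divided by that of all other autosomes, was 1.48 ± 0.214 (n = 26 cells). The lowest cell, cell 22, stood at 0.900, the median at 1.50 and the highest, cell 11, at 1.82, and 25 of 26 cells lay above 1. It ranked highest of 22 chromosomes in 6 cells, among the first 2 in 16 cells and among the first 3 in 19, and its worst rank was 13, in cell 22. The counts behind the ratios put between 520 (cell 22) and 7451 (cell 1) on the chromosome, with a median of 1902, or 0.673 to 9.64 per bin. Totals over all used bins ran from 20182 to 178941 per cell, and the level of chromosome 17 showed Pearson's r of 0.0770 and Spearman's rho of 0.0632 with the total over the 26 cells. Summed over the cells, its 61762 counts gave 1.46 times the mean level over all used bins, with an exact 95% Poisson interval from 1.45 to 1.47 that covers counting error only. GC content, GATC density per bin and DNA copy number were not analysed here, so their part in these levels was not tested.

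Beside the chromosomes most like it in gene content, chromosome 17 lay between 16 and 19. Chromosome 16 stood at 1.23 ± 0.182 and chromosome 19 at 1.66 ± 0.494. Within a cell, 17 was above 16 in 23 cells and above 19 in 7. Fewer windows of 17 than of 16 lay below the genome's mean: of 78 windows of 1 Mb, 16 (20.5%) had a mean level below 1, against 29 of 79 (36.7%) on chromosome 16 and 9 of 56 (16.1%) on chromosome 19. On 17 the windows ran from 0.374 to 2.51 with a median of 1.51. Across cells, the levels of 17 and 19 had r = 0.325 and rho = 0.363 (r = 0.553 without the 2 cells farthest from the median), and those of 17 and 16 had r = 0.0949 and rho = 0.113 (r = -0.109 without the 2 farthest cells). These are descriptions of cells that share a clone.

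Counted bin by bin, a ratio of at least 1 made a bin positive in that cell. On average 52.1% ± 8.70 of the chromosome 17 bins were positive in a cell, against 35.9% ± 2.54 of those of the other autosomes. Bins positive in at least 21 cells (80%), here called shared, numbered 104, or 13.5% of the 773, against a background of 5.61% over all used bins. Bins positive in at most 5 cells (20%), here called low, numbered 100, or 12.9%, against 33.5% over all used bins. On chromosome 16 the shares were 9.10% shared and 25.7% low, and on chromosome 19 they were 20.9% and 8.59%. The median bin of chromosome 17 was positive in 14 cells and the median bin of the genome in 8. No bin of the chromosome was positive in all 26 cells, the highest number was 25, and 1 bin was positive in none.

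The mean level was nearly the same on both arms. From here a level is the mean ratio of the bins over the cell's mean over all used bins. The short arm (219 bins) stood at 1.47 ± 0.292 and was above 1 in all 26 cells. The long arm (554 bins) stood at 1.47 ± 0.233 and was above 1 in 25 cells. The log2 ratio of long over short arm was 0.0064 ± 0.33, with the long arm higher in 18 cells and a lowest value of -1.20 in cell 22. The levels of the arms had r = 0.263 and rho = 0.532 across the cells. Of the short arm, 31 bins (14.16%) were shared and 21 (9.59%) low. Of the long arm, 73 (13.18%) were shared and 79 (14.26%) low. The share of low bins was thus higher on the long arm, while the shares of shared bins were close. The terminal 1 Mb stood at 2.03 ± 3.18 on the short arm and at 1.45 ± 0.381 on the long arm. The first of these rests on cell 21, which reached 17.3 there. This 1 Mb includes the bin at 300001, whose expectation was low (under 0.5 times the median), with 5 counts in 3 cells. The median of the 1 Mb over cells was 1.31.

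**Figure D1:**
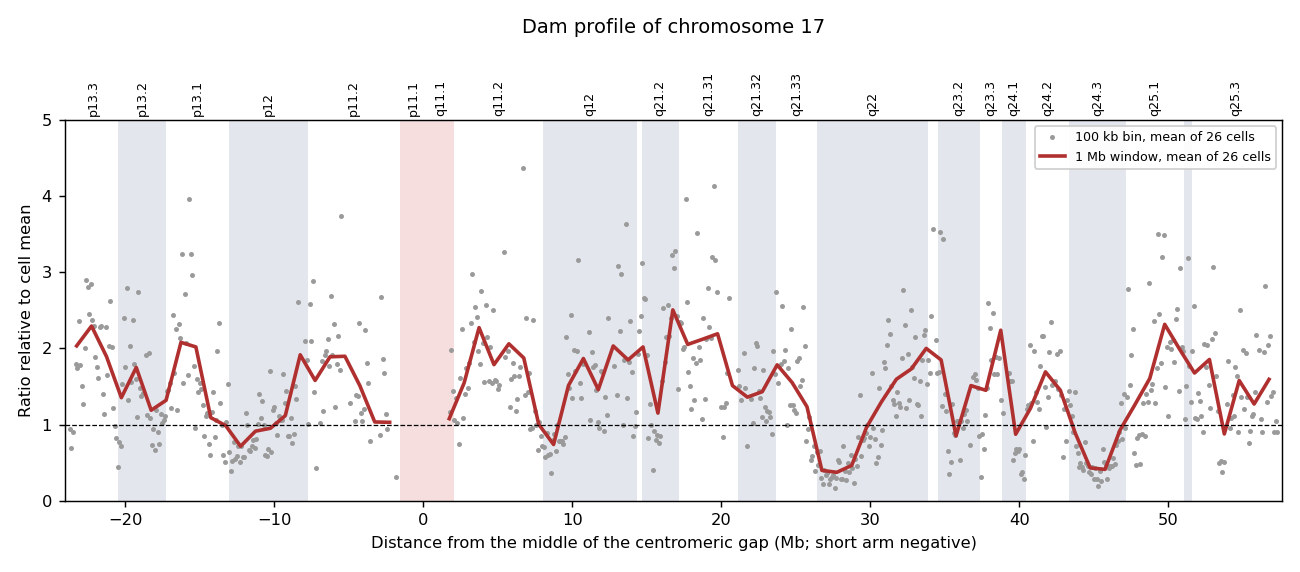
Mean ratio over the 26 cells, relative to each cell's mean, of 100 kb bins without those of low expectation (dots) and of 1 Mb windows (line), against the distance in Mb from the middle of the centromeric gap. Dark bands are shaded grey and centromeric bands pink, and the dashed line is the genome's mean. The windows range from 0.374 to 2.51, and the deepest low stretches lie in 17q22 and 17q24.3.

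The plot of the profile along the chromosome shows a high and ragged course with a few deep troughs. Of the 22 bands outside the centromere, 18 were above 1 in at least 21 cells, 1 was below and 3 were on neither side. The 12 light bands were all above 1, with means between 1.42 (17q25.3) and 2.19 (17q21.1). Of the 10 dark bands, 6 were above 1, 17q24.3 was below, and 17p12, 17q22 and 17q24.1 were on neither side. Over all bins of a kind, light bands stood at 1.67 ± 0.281 (410 bins) and dark bands at 1.25 ± 0.147 (356 bins). The log2 ratio of light over dark was 0.40 ± 0.23 and above 0 in 25 cells, with cell 21 highest at 0.66 and cell 22 alone below 0 at -0.58. The value of cell 21 includes the bin of low expectation at 300001, in a light band. Without all bins of low expectation the log2 ratio was 0.47 ± 0.21, again above 0 in 25 cells. Shared bins made up 17.3% of the light bands and 9.27% of the dark ones, and low bins 7.07% and 19.1%.

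Stain alone did not order the bands. The dark band 17q21.2, which holds the keratin cluster but also RARA, TOP2A and the STAT genes, stood at 1.87 ± 0.518. The light band 17q21.33, which holds COL1A1, stood at 1.47 ± 0.285. The highest bands were 17q21.1 (2.19 ± 0.937 over 3 bins), 17q23.1 (2.12 ± 0.737 over 7 bins), 17q21.31 (2.03 ± 0.489) and 17p13.3 (1.95 ± 1.11). In 17p13.3, cell 21 reached 6.91 while the median cell stood at 1.75, and without bins of low expectation the band stood at 1.81 ± 0.449. Band 17q11.2, which holds NF1, was at 1.78 ± 0.317 and was the only band above 1 in all 26 cells. At 17q25.1, the band of GRB2, the level was 1.81 ± 0.515, and at 17p13.1, the band of POLR2A, it was 1.63 ± 0.332. Both were above 1 in 25 cells.

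Most neighbouring bands kept their order from cell to cell. Of 21 adjacent pairs, the centromeric bands left out, 13 were ordered the same way in at least 21 cells and 8 were not. From 17q21.31 to 17q21.32 the level fell in 25 cells, by 0.56 ± 0.47 on the log2 scale. From 17q22 to 17q23.1 it rose in 25 cells, by 0.95 ± 0.60. Bands 17q21.32 and 17q21.33 could not be ordered, with 13 cells on each side. Nor could 17q25.1 and 17q25.2, where 17 cells had the distal band lower.

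**Figure D2:**
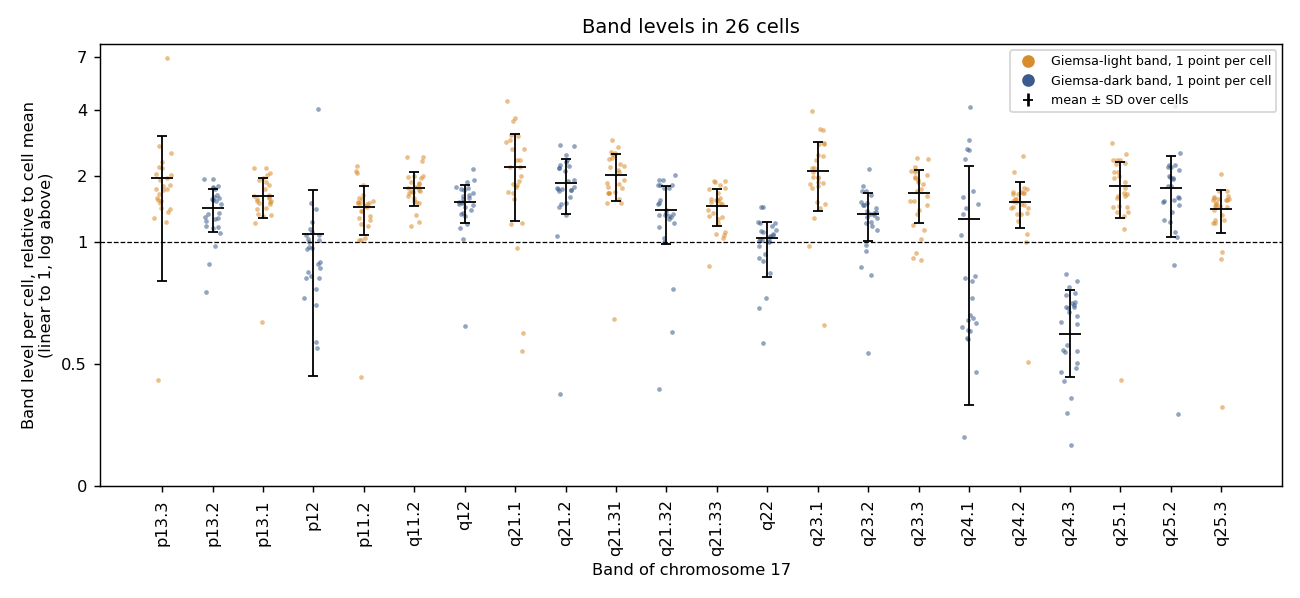
Level of each band of chromosome 17 in the 26 cells (dots), with the mean and SD over cells in black and light bands in orange, dark bands in blue; the axis is linear up to the dashed line at 1 and logarithmic above. In 17q24.3 no cell reaches 1, and in 17p12 cell 22 stands apart at 4.03.

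As the plot of band levels shows, 17q24.3 was the one band below the genome's mean in every cell. Its level was 0.626 ± 0.178, with single cells from 0.169 to 0.870. It was the lowest of the 22 bands in 21 cells and below both neighbours in all 26. The step down from 17q24.2 was -1.31 ± 0.47 and the step up to 17q25.1 was 1.53 ± 0.48, both log2. Of its 38 bins 22 were low and none was shared. Band 17q22, at 1.05 ± 0.193, was below both neighbours in 24 cells, and so was 17p12, at 1.09 ± 0.638. Without cell 22 the mean of 17p12 was 0.971 ± 0.218. Band 17q24.1 stood at 1.28 ± 0.947 with a median of only 0.848, and without bins of low expectation its mean was 0.839 ± 0.323.

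The low bins gathered in a few places. Of the 100 low bins, 49 lay in 17q22 and 17q24.3. Runs of at least 3 adjacent low bins, called low stretches, numbered 8 and held 57 bins, and the other 43 low bins lay outside them. Stretches were not counted on other chromosomes, so their number was not compared with the genome. Because the rule chose these bins for their low share of positive cells, the levels that follow describe them and test nothing.

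The deepest low region was the first part of 17q22, a dark band. There, 15 bins from 50400001 to 51900000 stood at 0.324 ± 0.153 and 9 bins from 52000001 to 52900000 at 0.423 ± 0.203, below 1 in all 26 cells in both. They rest on 263 and 208 counts over all cells. The single bin that parts them, from 51900001, holds KIF2B, which encodes a kinesin that takes microtubules apart, and was positive in 7 cells at a level of 0.713 ± 0.992 (32 counts). As 1 span of 25 bins the region stood at 0.375 ± 0.119, with cells from 0.191 to 0.606. KIF2B is the only protein-coding gene that RefSeq lists between CA10, before the span, and TOM1L1, after it. The 2 bins of 17q22 before the span were also below 1 in 23 cells, at 0.560 ± 0.529. The 47 bins after it, from 52900001 to 57600000, stood at 1.43 ± 0.280 and were above 1 in 25 cells. Thus the near-average level of the band joins a part far below 1 and a part above it. The border between these parts was drawn from the same values, so the difference describes the band and tests nothing.

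The second was the interval from KCNJ2 to SOX9 in 17q24.3, long known for enhancers of SOX9, a transcription factor of cartilage and testis. Over 21 bins from 68100001 to 70200000 the level was 0.432 ± 0.144, with cells from 0.148 to 0.678 and none above 1, on 639 counts. RefSeq lists no protein-coding gene between the pair. Low stretches covered 67700001 to 68100000 (0.447 ± 0.261), 68200001 to 69300000 (0.362 ± 0.204) and 69400001 to 70000000 (0.433 ± 0.222). The bin that holds KCNJ2 parted the first from the second. It was at 0.776 ± 0.817 and positive in 6 cells, 1 more than the limit for a low bin. The SOX9 bin, just beyond the last stretch, stood at 0.484 ± 0.812 and was below 1 in 21 cells. The low region thus began before KCNJ2. Beyond it the level was near the mean, 1.01 ± 0.406 over the first 6 bins of the band and 0.981 ± 0.458 over the 7 bins after SOX9.

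**Figure D3:**
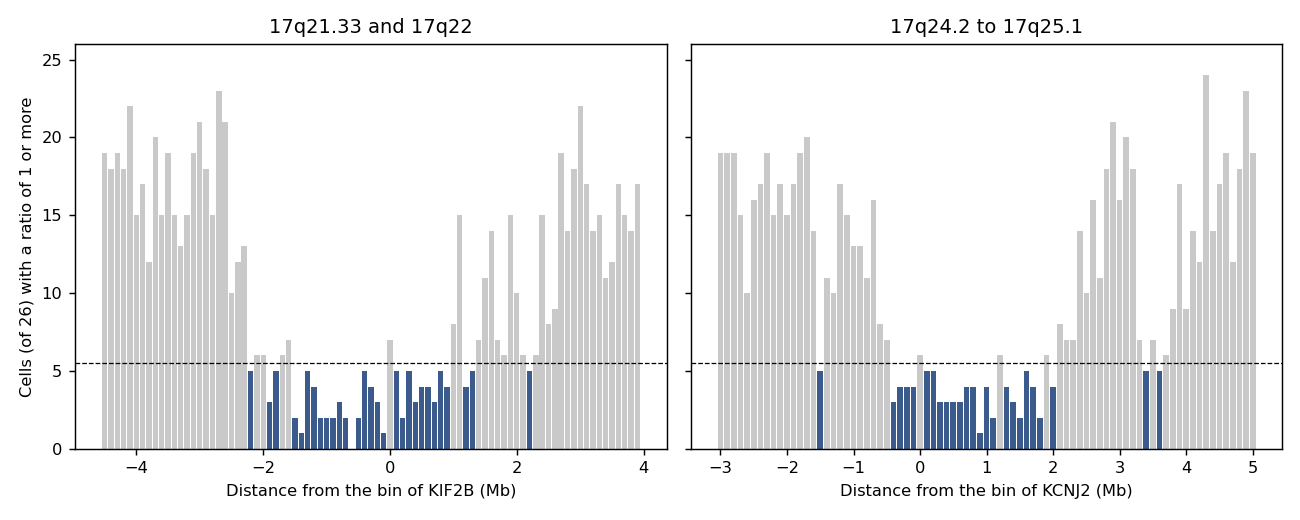
Number of cells, of 26, in which each 100 kb bin was positive, by distance in Mb from the bin of KIF2B (left) and of KCNJ2 (right). Low bins (at most 5 cells, dashed line) are blue; the bins at distance 0 reach 7 and 6 cells.

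The other low stretches were short. In 17q24.1, 4 bins from 63800001 to 64200000 with CEP112, which encodes a centrosomal protein, stood at 0.407 ± 0.314, and 24 cells were below 1. In 17q25.3, 3 bins from 77100001 to 77400000 with part of RBFOX3, the gene of the neuronal splicing factor known as NeuN, stood at 0.467 ± 0.437, and 23 cells were below 1. The light band around them was high: it stood at 1.71 ± 0.464 before RBFOX3, at 0.604 ± 0.325 over the 6 RBFOX3 bins and at 1.42 ± 0.349 beyond. Here a trough of a few bins lay between high neighbours, whereas the plot of positive cells around KIF2B and KCNJ2 shows longer troughs. The low span held 25 of the 74 bins of 17q22, and KCNJ2 to SOX9 held 21 of the 38 bins of 17q24.3. The last stretch, 5 bins from 21800001 to 22300000 next to the centromere, stood at 0.451 ± 0.528, but 4 of its bins had a low expectation and it held 41 counts in all.

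High stretches, by the same rule with at least 21 cells, numbered 6 and held 21 bins, and they too were counted on this chromosome only. The rule chose these bins for their high share of positive cells. Their levels and the counts of cells above the flanks therefore describe them and test nothing. The highest was 8000001 to 8300000 in 17p13.1, with the clock gene PER1 and the mitotic kinase AURKB, at 3.39 ± 1.07 and above 1 in 25 cells. In 17q21.31 the stretch from 43100001 to 43500000, with the N-myristoyltransferase NMT1, stood at 3.30 ± 1.04, was above 1 in all 26 cells and exceeded the 10 bins that flank it in all 26. Among the other 5 stretches this number ran from 16 cells (1400001) and 19 (7300001) to 24, so the former pair did not stand above its flanks in at least 21 cells. A second stretch of that band, 41300001 to 41600000 with the autophagy receptor NBR1, stood at 2.76 ± 1.02. The longest, 5 bins from 38200001 to 38700000 across 17q21.1 and 17q21.2, held the retinoic acid receptor RARA and the topoisomerase TOP2A and stood at 2.62 ± 1.07. The others were 7300001 to 7600000, with POLR2A and EIF4A1, at 2.57 ± 1.10, and 1400001 to 1700000, with the splicing factor PRPF8, at 2.50 ± 1.00. PER1, AURKB, NBR1, NMT1, PRPF8, CEP112 and KIF2B were named after the stretches were known.

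Windows of 1 Mb gave the same picture at lower resolution. The highest were 40000001 to 41000000 in 17q21.2 and 17q21.31 (2.51 ± 0.962), 73000001 to 74000000 in 17q25.1 (2.32 ± 0.875), 1000001 to 2000000 in 17p13.3 (2.29 ± 0.604) and 27000001 to 28000000 in 17q11.2 (2.27 ± 0.660). The fifth, 62000001 to 63000000 at 2.24 ± 1.60, was above 1 in only 20 cells and held 4 bins of low expectation. The 5 lowest windows overlapped the low regions of 17q22 and 17q24.3, 1 of them reaching back into 17q21.33, and ran from 0.374 ± 0.152 at 51000001 to 0.464 ± 0.198 at 52000001. Of the 78 windows, 43 were above 1 in at least 21 cells, against 21.4% of all windows of the genome, 7 were below, against 41.5%, and 28 were on neither side.

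Single bins varied most. Among bins that were not of low expectation (under 0.5 times the median), the highest, 30400001 in 17q11.2, had a level of 4.36 ± 2.11 from 147 counts and was positive in 24 cells. It was followed by 43200001 (4.13 ± 2.54), 8000001 with PER1 (3.96 ± 2.23), 41300001 with NBR1 (3.96 ± 2.43) and 18200001 in 17p11.2 (3.74 ± 2.48). The lowest was 51300001 in 17q22, at 0.166 ± 0.242 from 10 counts, and no cell was positive there. Of the 5 lowest bins 4 were in 17q22 and the other, 69000001 at 0.200 ± 0.345, lay between KCNJ2 and SOX9.

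Known genes were grouped by where they are used, to read the levels beside function. Gene positions were entered to 100 kb and the classes drawn from textbook knowledge, not from expression in these cells. The 16 broadly expressed loci stood at 1.94 ± 0.456. GRB2 was highest at 3.34 ± 1.46, followed by TOP2A at 2.67 ± 2.01 and YWHAE, a signalling adaptor, at 2.63 ± 1.23. Of these loci 6 were above 1 in at least 21 cells and none was below. Over all used bins of the genome, taken singly, 6.09% were above and 31.4% below by that rule, but loci of several bins are steadier than a single bin. The lowest were the fatty acid synthase FASN at 0.907 ± 0.865, the histone gene H3F3B at 1.11 ± 1.02 and the cytoplasmic actin ACTG1 at 1.14 ± 0.877, each on neither side.

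The 9 blood and signalling loci stood at 1.92 ± 0.658, with 3 above 1 and none below, beside 6.09% and 31.4% of single bins. The 3 were RARA at 2.89 ± 1.50, BRCA1, a DNA repair gene, at 2.01 ± 1.05, and the stretch from STAT5B to STAT3, transcription factors of cytokine signalling, at 2.89 ± 1.90. The lowest were the platelet integrin ITGA2B at 1.08 ± 0.973, the neutrophil enzyme MPO at 1.32 ± 1.17 and NF1, a brake on RAS, at 1.65 ± 0.661. All 6 loci of the class outside the first 3, ITGA2B and MPO among them, were on neither side. The class mixes genes of blood lineages with signalling and repair genes, so its level does not describe blood genes alone. These genes were not uniformly high, and a locus of 1 bin carries a large spread between cells.

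The 11 loci of other tissues stood at 1.02 ± 0.293. The lowest were SOX9 at 0.484 ± 0.812, CA10 at 0.558 ± 0.261 and RBFOX3 at 0.604 ± 0.325, the 3 that were below 1 in at least 21 cells, a share no higher than the 31.4% of single bins of the genome. The highest were the collagen gene COL1A1 at 1.74 ± 1.06, the serotonin transporter SLC6A4 at 1.59 ± 1.20 and the myelin gene PMP22 at 1.51 ± 1.98, each on neither side. The last rests on cell 22, which reached 9.83 there. Without it PMP22 stood at 1.17 ± 1.04, below MAPT, the gene of the microtubule protein tau, at 1.45 ± 0.712.

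The 7 clusters of tissue-restricted genes stood at 1.15 ± 0.358. The CC chemokine genes CCL2 to CCL1 were at 0.769 ± 1.04, the muscle myosin (MYH) cluster at 0.785 ± 0.450, the olfactory receptor cluster at 0.849 ± 0.494 and the keratin cluster at 0.926 ± 0.390. The lipid transporter genes ABCA8 to ABCA5 were at 1.14 ± 0.482 and the HOXB cluster at 1.15 ± 0.525. All 6 were on neither side. The growth hormone and placental lactogen cluster was the exception at 2.46 ± 1.86, above 1 in 22 cells. Its level is that of a single bin of 17q23.3, next to that of CD79B, a B-cell receptor gene, at 1.66 ± 1.04. A bin of 100 kb does not part the cluster from other genes it may hold.

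Within a cell, broadly expressed loci were above those of other tissues in 24 of 26 cells, with a log2 ratio of 0.94 ± 0.60 and a lowest value of -0.96 in cell 22. They were above the clusters in 24 cells (0.78 ± 0.51), and the blood and signalling loci were above those of other tissues in 23 (0.87 ± 0.78). Broadly expressed loci and the blood and signalling loci could not be ordered, at 0.07 ± 0.42 with the former higher in 18 cells. The mean of the whole chromosome, 1.47, lay between the upper and the lower pair of classes, which the plot of landmark levels shows locus by locus. Several loci share a bin or a stretch, such as POLR2A and EIF4A1 or RARA and TOP2A, so they are not independent points.

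**Figure D4:**
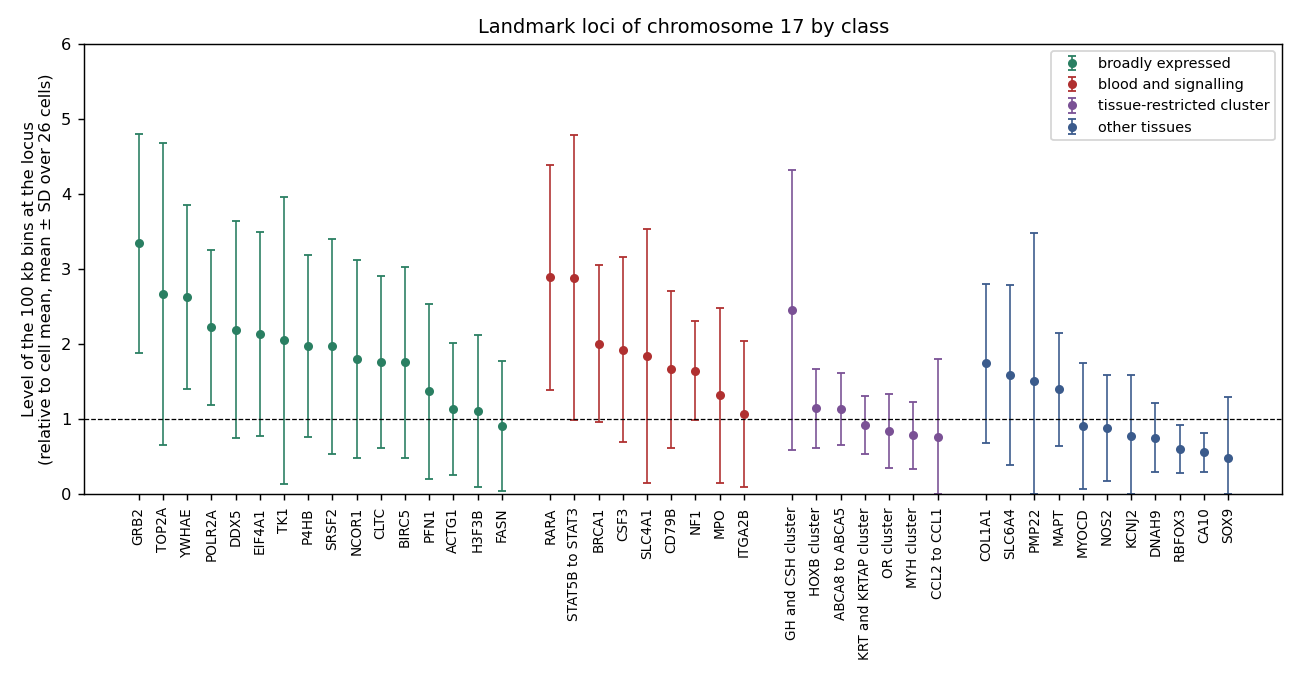
Mean level over 26 cells, with the SD between cells, of the landmark loci of chromosome 17 by class, with a dashed line at the genome's mean of 1; lower bars end at 0. Broadly expressed loci range from 0.907 (FASN) to 3.34 (GRB2) and loci of other tissues from 0.484 (SOX9) to 1.74 (COL1A1).

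Most cells followed one profile. When the 1 Mb windows of each cell were set beside the mean of the other cells, Spearman's rho had a median of 0.749 on chromosome 17, against 0.748 on chromosome 16 and 0.765 on 19. The highest was 0.891 in cell 1, the deepest cell, and the lowest were 0.239 in cell 22 and 0.271. Over the bands alone the median was 0.695, with 0.141 in cell 22 and 0.184 in cell 23 lowest. The correlations are across regions within a cell, and depth differs between the cells. In each of the 22 bands the spread between cells was larger than counting gives: the variance over cells was between 1.76 (17q21.1) and 23.4 (17p12) times that of counting alone. The latter rests on cell 22: without it the ratio was 3.63 in 17p12, and the range over bands was 1.68 (17q23.2) to 6.75 (17q25.1). These ratios treat each count as independent, and no source used here says whether PCR copies were removed.

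**Figure D5:**
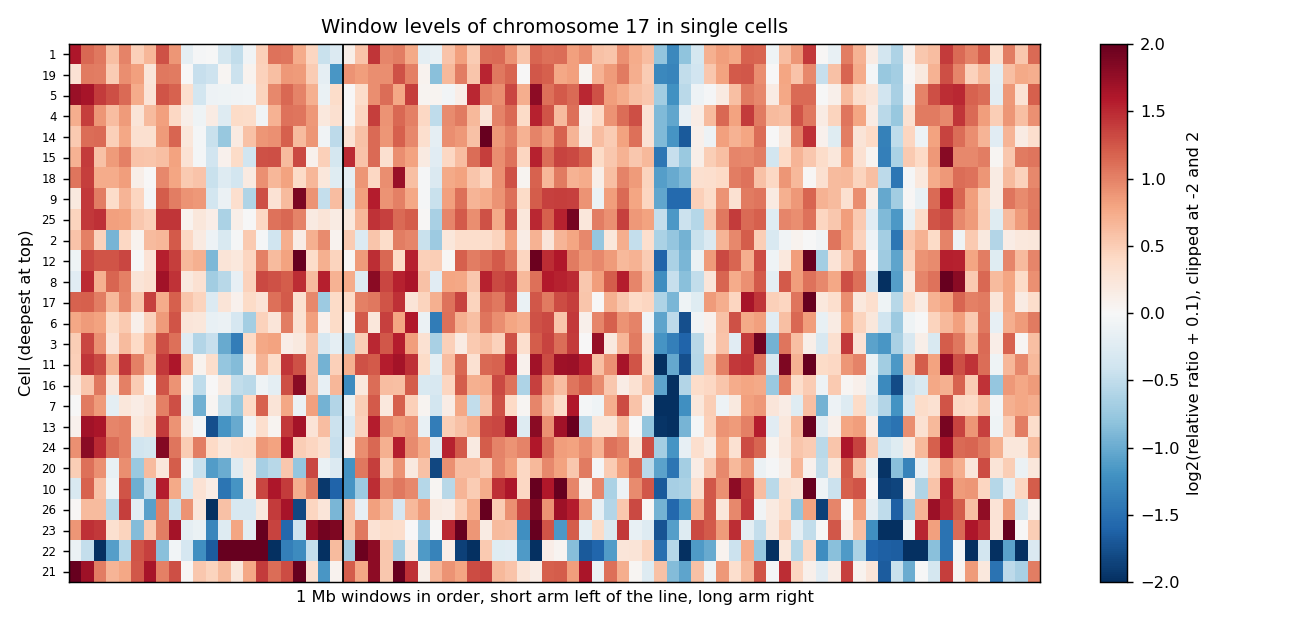
Heat map of the 78 windows of 1 Mb (columns, in order, with a line between the arms) in each of the 26 cells (rows, deepest at the top), as log2 of the relative ratio plus 0.1, clipped at -2 and 2. The blue columns of the long arm are the low regions of 17q22 and 17q24.3, and cell 22 has a run of dark red windows in the short arm that the other cells lack.

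Cell 22 departed from the others, as the heat map of windows by cell shows. It held the fewest counts on the chromosome, 520. Of 22 bands 17 were below 1 in this cell and 5 were above, and it was the lowest of all cells in 15 bands. In 17p12, the band of PMP22, a myelin protein whose dosage underlies inherited neuropathies, it was the highest, at 4.03. Without bins of low expectation it was again the highest in this band, at 3.22. There it held 155 counts, or 29.8% of its counts on the chromosome, against 4.73% in the other cells together.

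The raised signal of cell 22 lay in a few blocks. Only 8 of its 78 windows reached 2, and 39 were below 0.5. The 4 windows from 12000001 to 16000000 stood at 4.51, 4.13, 3.86 and 8.67, where the other cells had means of 0.770, 0.825, 1.01 and 1.65. The last of these windows, from 15000001, held 4 bins of low expectation. The pair from 5000001 to 7000000 stood at 2.30 and 2.49 and the pair from 26000001 to 28000000 at 3.80 and 3.36. In 6 of these 8 windows cell 22 was above every other cell. Without it the level of the chromosome was 1.50 ± 0.183 and the log2 ratio of light over dark bands 0.44 ± 0.11, both on the same side in all 25 remaining cells.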

How the data were processed

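Single-cell DamID was read in 26 cells of KBM7 clone 5-8. The deposited values are a linear ratio of observed over expected signal per 100 kb bin and cell, read as such from the deposited table. The submitters' processing notes name cutadapt, Bowtie2 2.1.0 and hg19 for the reads, which came from 21 extension steps of PCR, per the labels' protocols. No source used here gives how reads were counted or the expectation built. Whole counts behind the ratios were recovered within a tolerance of 0.001, with a relative expectation per bin. Low expectation means under 0.5 times the median (54 of the 773 bins, 18 of them in 17p11.2).

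Bands, arms and loci are means over bins; 1 Mb windows needed 5 used bins. No test was run, since the cells are of 1 clone and count as 1 sample. A side needed 21 of 26 cells. Bands, windows and bins were named by a fixed rule: all bands and stretches, the 5 highest and lowest windows and bins, and the 3 highest and lowest loci of a class with all clusters. Members and lists were chosen with earlier results of these data known. Band borders and gene bins (hg19) came from general knowledge: 58 of 58 gene names matched RefSeq (GRCh38.p14) with 0 pairs out of order. Some loci are not reported here and enter no class. On simulated counts, 99.98% of 26282 bins were recovered exactly and 4 of 4 shifted bands were placed on the right side, within 2.84%. These counts varied by counting error alone and only bands of many bins were shifted. Shifts in bands of few bins, and the larger spread of the real cells, were thus not checked. Work used scipy 1.17.1, pandas 2.3.3, numpy 2.4.6 and matplotlib 3.10.9 under Python 3.11.15.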

Additional observations from a re-analysis of the deposited data

How the results depend on the processing

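Of 75 recomputed values of the main comparisons 67 stayed close to the main value, and of 198 recomputed band levels 191 did. Close meant a change smaller than the SD over cells, or for counts a change within a set factor. By that factor, 72 shared bins after thinning to 20000 counts a cell (9.31%, against 4.38% of all used bins) were close to 104. No value placed on a side reversed, but a side could be lost. So thinned, 17q25.2 was above 1 in 19 cells in place of 24. Long over short arm, which was on neither side, turned sign. The means of 17q24.1 and 17p12, also on neither side, moved both ways, from 0.839 to 1.70 and from 0.953 to 1.21. Over the alternatives the level of chromosome 17 ran from 1.46 to 1.59 (linear), and on the log2 scale light over dark bands from 0.36 to 0.50, broadly expressed over other-tissue loci from 0.87 to 1.02 and long over short arm from -0.04 to 0.08. The counts of bins moved. Leaving out the 6 cells with the smallest share of bins holding any count, 170 bins were shared (22%, against 8.81% of all used bins). With positive set at 0.5, 314 bins were shared (40.6%, against 17.8% of all used bins), 24 were low (3.10%, against 6.86%) and 3 lay in low stretches. Set at 2, 4 were shared (0.517%, close to the 0.46% of all used bins), 369 were low (47.7%, against 75.1%) and 293 lay in low stretches. Thinned to 20000 counts a cell, 20 bins lay in low stretches in place of 57, so the extent of the stretches depends on depth and threshold. In 17q24.3 the thinned level was 0.678 and above 1 in 2 cells. No paired analysis was possible because all cells form 1 group. Dropping each cell in turn was not run, except cell 22.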

Other observations

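Bins of low expectation hold the most extreme ratios of chromosome 17. With no filter on expectation the highest bin was 300001 in 17p13.3, at a level of 7.33 ± 30.6 from 5 counts in 3 cells, followed by 62800001 in 17q24.1, at 6.99 ± 14.3 from 9 counts in 7 cells. The third was 15500001 in 17p12, at 4.93 ± 6.19 from 65 counts in 21 cells. All 3 are left out of the ranking of single bins.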
